A study of Homo sapiens with 22 samples.

Results

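JUN binding in NCI-H660 cells was compared between a control siRNA (siNC) and an siRNA against FOXA2 (siFOXA2), each represented by 1 deposited list of ChIP-seq regions. The siNC list held 18401 regions and the siFOXA2 list 59452, together 77853 of the 871377 regions and 2 of the 22 lists of the series. The members were all regions of both lists, and in a second, stricter comparison only those scoring 100 or more, which left 7746 siNC and 4889 siFOXA2 regions. The score is the authors' whole-number measure of enrichment for each region, taken here to be the −log10 q-value times 10, so that 100 is a strict call. A siNC region was called kept if it shared at least 1 bp with a siFOXA2 region and lost if it did not, and a siFOXA2 region that touched no siNC region was called new. With 1 list per side there was no replicate check and no p-value. Intervals are 95% intervals from counting error alone, and the lists give no read totals, so the sequencing depth is unknown.

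NCI-H660 is a human neuroendocrine prostate cancer line that does not depend on the androgen receptor. In ChIP-seq, chromatin is crosslinked and broken, an antibody, here against JUN, pulls down the fragments that carry its target, and these are sequenced. The labels give the treatments as a FOXA2 knockdown and a negative control knockdown, with no further agent in either. Regions were set against 3 further lists from vehicle-treated NCI-H660 cells, namely FOXA2 ChIP-seq (11886 regions), ATAC-seq (99959), which marks accessible chromatin, and H3K4me2 ChIP-seq (70388), a histone mark of promoters and enhancers. These cells carried no siRNA, so a region called FOXA2-bound was bound in vehicle-treated cells. The lists hold no RNA or protein values, and the level of FOXA2 left after the siRNA was not analysed here. All coordinates are on hg19.

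JUN is a subunit of AP-1, a dimer of basic leucine zipper proteins of the JUN, FOS, ATF and MAF families. JUN with a FOS partner reads the AP-1 element, while dimers with ATF partners also read the cyclic AMP response element (CRE), which is common in promoters, and JUN binds the promoter of its own gene. FOXA2 is a forkhead pioneer factor that binds nucleosomal DNA, mostly at enhancers, and is expressed in neuroendocrine prostate cancer.

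The cell type was checked at promoters. The neuroendocrine markers CHGA, SYP, INSM1 and NCAM1 had accessible, H3K4me2-marked promoters. So did 3 of 4 luminal markers, the exception being KLK3, and 3 of 4 basal or stem-like markers, the exception being KRT5. These marks show promoters that can be used, and a poised or active gene cannot be told apart from them.

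The sequences shown are short elements found inside some of the JUN regions. The elements below lie in JUN regions of listed genes and were picked after their values had been seen. They do not stand for the classes, since the AP-1 element was in 18.4% of kept and 13.9% of lost distal regions. Shown are the CRE at promoters that kept JUN and at a new region, and the AP-1 element at a kept promoter and at lost distal regions. Each is read 5′ to 3′ on the forward strand of the reference (GRCh37, the same build as hg19), with the element in capitals.
JUND promoter, kept, chr19:18392614-18392643: gccttgtgggtTGACGTCAtgggggcggcc
DUSP1 promoter, kept, chr5:172198305-172198334: tgacggggcggTGACGTCAcccgccctgcc
CHGA promoter, kept, chr14:93389430-93389459: ggcggcaccgcTGACGTCAtttccggggtc
CHGB promoter, kept, chr20:5892038-5892067: gtgctgcttcgTGACGTCAgggctgagcta
FOSL2 promoter, kept, chr2:28615718-28615746: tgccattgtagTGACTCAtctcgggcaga
ATF3 distal region, lost, chr1:212740582-212740610: tgtccccctgcTGACTCAtctgacattaa
MAFF distal region, lost, chr22:38574199-38574227: ggcccatgttaTGACTCActccacaaata
CCN2 distal region, lost, chr6:132287824-132287852: tcaagtgtcggTGAGTCAgcagaggtcgg
SCG2 promoter, new, chr2:224467130-224467159: cactgccacacTGACGTCAccgggttcagc
The motifs searched on both strands were the CRE (TGACGTCA), the AP-1 element (TGANTCA, where N is C or G) and the forkhead element (TNTTTNN, where the N are A or G, A or G, and C or T). The CRE does not contain the AP-1 element. In windows of 201 bp centred on all gene starts, the CRE stood in 1.43%, the AP-1 element in 2.52% and the forkhead element in 13.7%. A match describes the letters only.

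The lost ATF3 region shown above also held a forkhead element and overlapped a FOXA2 region. It reached a score of 419 under siNC and had no siFOXA2 region. ATF3 codes for a stress-induced AP-1 partner. The gene also had JUN at its promoter, which scored 2011 under siNC and 1683 under siFOXA2, so that the promoter region was kept while the region 1766 bp from a gene start was lost. The lost regions near MAFF (440), which codes for a small MAF protein, and CCN2 (461), which codes for a secreted matrix protein, did not overlap FOXA2.

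The siFOXA2 list was longer and flatter than the siNC list. Its median score was 39 against 78, its 99th percentile 481 against 1400, and its highest score 15412 against 119312. Regions had the same median width of 383 bp in both lists. The siFOXA2 list covered 27.3 Mb of genome against 7.99 Mb. The direction of the difference in number therefore depended on the score. Over all regions siFOXA2 had more regions, with a log2 ratio of 1.69 (1.67 to 1.72). At scores of 100 or more it had fewer, with a log2 ratio of -0.66 (-0.72 to -0.61), since 42.1% of siNC but only 8.22% of siFOXA2 regions reached that score. When 200 was required the ratio was -1.11.

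Of the siNC regions, 8832 were kept (48.0%, 47.3 to 48.7%) and 9569 were lost (52.0% of 18401). In the stricter comparison 3149 were kept (40.7%) and 4597 lost (59.3% of 7746). The new regions numbered 50633 and 1741. A region lost at this stricter score need not be empty under siFOXA2. Of the 4597 lost regions, 30.6% overlapped a siFOXA2 region with a lower score and 69.4% overlapped none. Among lost promoter regions 51.1% still had a weaker siFOXA2 region, and among lost distal FOXA2-bound regions 24.8% did.

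Promoter regions, within 1 kb of a protein-coding transcription start, were kept more often than distal ones. Of 4123 promoter regions 2894 were kept (70.2%, 68.8 to 71.6%), and of 14278 distal regions 5938 (41.6%, 40.8 to 42.4%), a difference of 28.6 percentage points (26.97 to 30.20). Under the stricter score the shares were 65.8% and 34.6%. Promoters lay above distal regions within every decile of the siNC score. Among promoters the kept share ran from 52.2% in the lowest decile to 96.1% in the highest, and among distal regions that were FOXA2-free it ran from 28.0% to 81.3%. Distal FOXA2-bound regions ran from 33.3% to 68.2%, so in the highest decile they were kept less often than both other kinds.

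**Figure D1:**
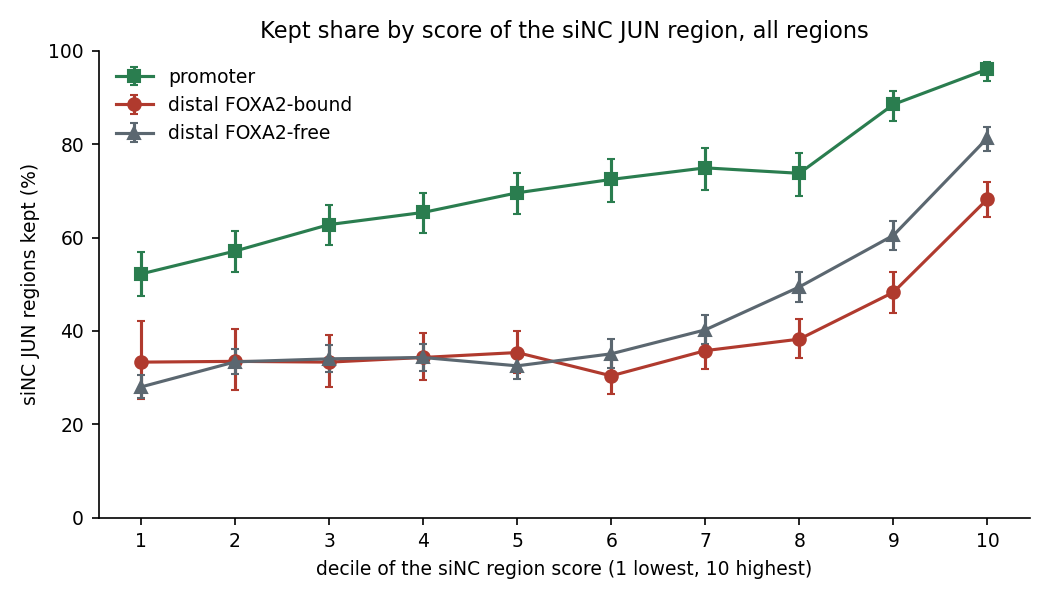
Share of siNC JUN regions kept under siFOXA2 (y axis, percent, with Wilson 95% intervals) against the decile of the siNC score (x axis, lowest to highest), for promoter, distal FOXA2-bound and distal FOXA2-free regions. Promoters lie highest throughout, and the distal FOXA2-bound line ends at 68.2% where the distal FOXA2-free line ends at 81.3%.

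For distal regions that had been FOXA2-bound, the size of the difference in kept share depended on the score. Of 4025 distal FOXA2-bound regions 1659 were kept (41.2%), and of 10253 FOXA2-free regions 4279 (41.7%), a difference of -0.52 percentage points with an interval of -2.31 to 1.28. Standardised over deciles of the siNC score, the difference was -4.00 points (-5.88 to -2.12). With the stricter score the shares were 30.2% (679 of 2248) and 37.0% (1477 of 3990), a difference of -6.81 points (-9.21 to -4.38). At promoters 61.4% of 249 FOXA2-bound and 70.8% of 3874 FOXA2-free regions were kept, a difference of -9.31 points (-15.6 to -3.30), and at the stricter score the difference was -20.4 points (-29.5 to -11.1). The kept share was highest in the quartile with the strongest FOXA2. From the lowest to the highest quartile of the FOXA2 score it was 36.4%, 35.6%, 38.9% and 48.8% among distal regions, whose median siNC JUN score rose alongside from 95.5 to 145. At the stricter score the quartiles gave 29.4%, 27.3%, 24.9% and 35.1%, all below the 37.0% of FOXA2-free regions.

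Without standardisation, chromatin state divided the distal regions by more percentage points than FOXA2 did. Distal regions marked by H3K4me2 were kept in 48.3% and unmarked ones in 28.2%. Accessible distal regions were kept in 44.2% and the others in 29.3%. At scores of 100 or more the corresponding shares were 38.1% and 22.5% for the mark and 35.5% and 16.7% for accessibility. Over all regions the median siNC score was 101 with the mark and 51 without, and 100 in accessible regions against 36 in the others. At the stricter score the share of G and C bases had medians of 48.8% in accessible and 41.3% in other distal regions. The chromatin contrasts were not compared at equal score or base composition. Among promoter regions 98.6% were accessible, which left 59 that were not, and of these 35.6% were kept.

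**Figure D2:**
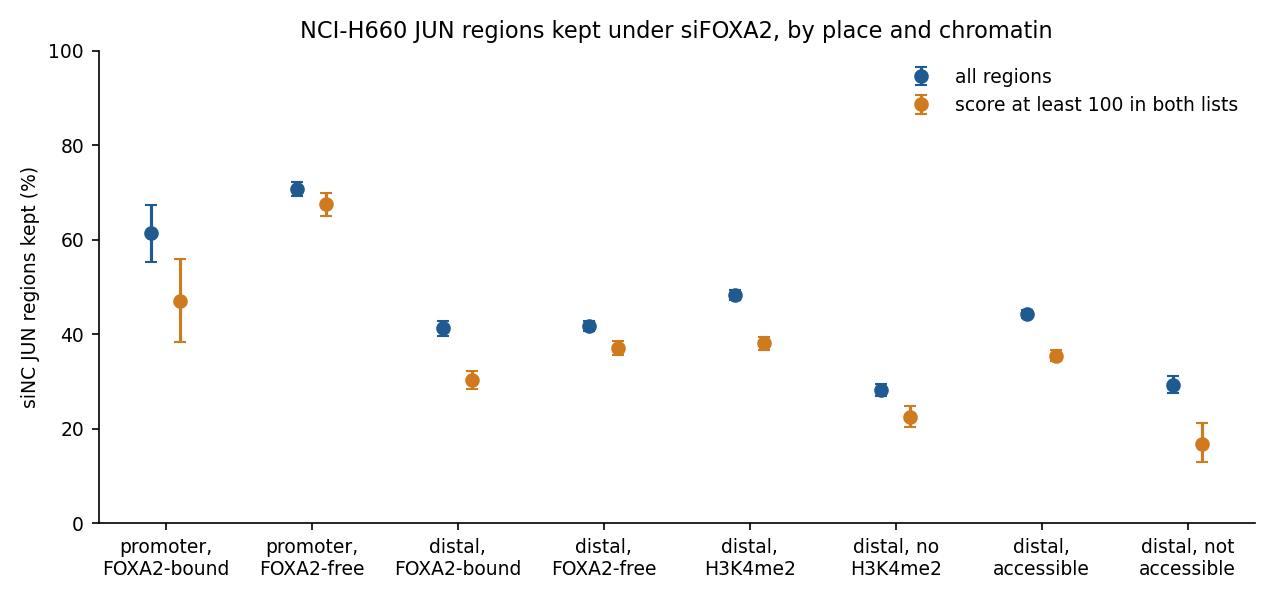
Share of siNC JUN regions kept under siFOXA2 (percent, with Wilson 95% intervals) for promoters by FOXA2 overlap and for distal regions by overlap with FOXA2, H3K4me2 and ATAC-seq regions, over all regions and at scores of 100 or more. Of the kinds drawn, FOXA2-free promoters sit highest, at 70.8% and 67.5%, and distal regions that carry H3K4me2 or are accessible lie above those that do not in both comparisons.

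Base composition moved with the kept share as well. Distal regions were ranked by the share of G and C bases in the 201 bp around their centre and divided into quintiles. The kept share was 15.5% in the quintile with least GC, then 20.4%, 40.3% and 59.8%, and 72.0% in the quintile with most. In the stricter comparison it ran 11.7%, 13.5%, 27.2%, 51.7% and 68.7%. The median GC content was 52.2% in kept, 45.3% in lost and 52.7% in new distal regions, against 46.8% in accessible distal regions of the line. The windows 2 kb away from these regions had medians of 42.3%, 40.3% and 39.3%. All 3 classes were richer in GC than their surroundings, and the new regions by most.

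Other contrasts of the series did not share one pattern. Between siNC and siFOXA2 in PC3, an androgen receptor-negative prostate cancer line, the kept share of distal JUN regions was 5.55% in the lowest and 21.8% in the highest quintile of GC, while that of FOSL1, another AP-1 subunit, was 17.2% in the lowest and 5.31% in the highest. For FOXA2 in NCI-H660 cells between vehicle and the LSD1 inhibitor ORY-1001 it was 70.5% and 65.3%. The part of library preparation in these trends was not tested, and with 1 list per side library and treatment cannot be told apart.

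FOXA2-bound distal regions were poorer in GC than FOXA2-free ones (medians of 45.8% and 49.3%), and at equal GC the order between them turned. Within every GC quintile the FOXA2-bound regions were kept at least as often as the FOXA2-free ones. In the lowest quintile the shares were 20.99% and 11.2%, in the middle quintile 41.1% and 40.0%, and in the highest 85.1% and 68.7%. Standardised over GC deciles, the difference was 8.49 percentage points (6.86 to 10.1), and at the stricter score it was 6.27 points (3.95 to 8.59), against -6.81 before. The FOXA2-bound regions also scored higher, with median siNC scores of 124 against 48 in the lowest quintile. The promoter minus distal difference fell from 28.6 to 6.41 points (3.74 to 9.09) under the same standardisation, and the difference at FOXA2-bound promoters became 2.78 points with an interval of -4.15 to 9.71. The lower kept share at distal FOXA2-bound regions that score at least 100 is thus not seen once distal regions of like GC content are compared, and for promoters at that score no such value was computed.

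**Figure D3:**
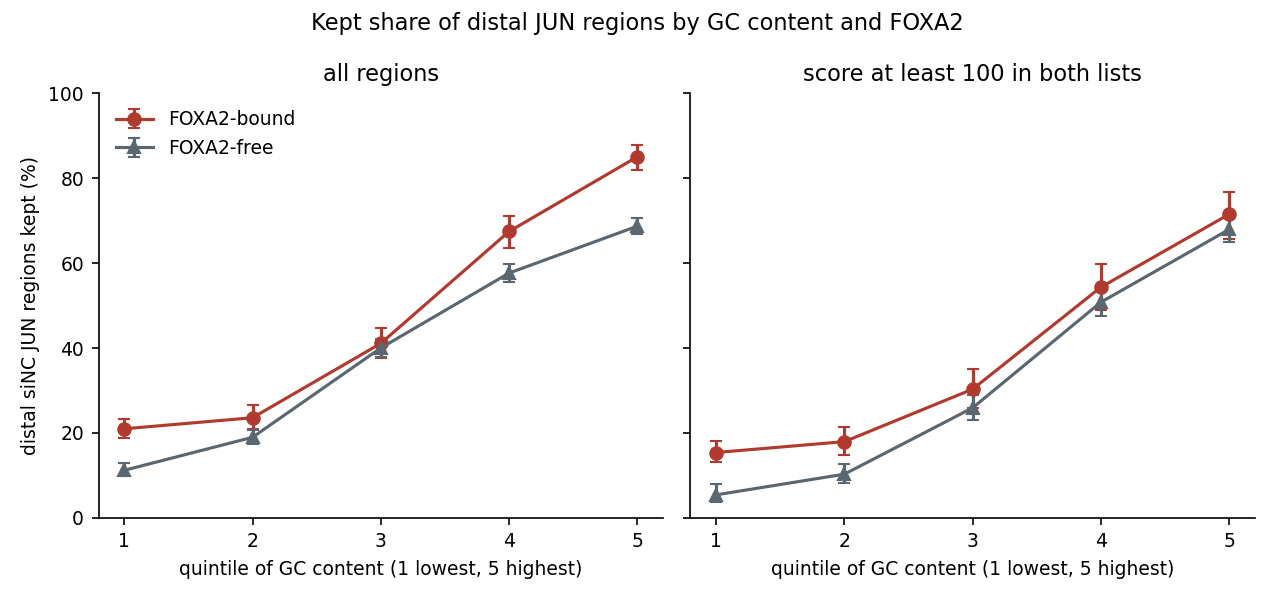
Share of distal siNC JUN regions kept under siFOXA2 (y axis, percent, with Wilson 95% intervals) by quintile of GC content (x axis), for FOXA2-bound and FOXA2-free regions, over all regions and at scores of 100 or more. All lines climb with GC, the FOXA2-bound one over all regions from 20.99% to 85.1%, and the FOXA2-bound points lie above the FOXA2-free points in each quintile.

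The same question was put from the side of accessible chromatin, which uses neither the kept nor the lost class. Of the 10074 accessible distal regions with FOXA2, 39.5% held a JUN region under siNC and 24.7% under siFOXA2, although the siFOXA2 list was the longer one. Of the 73363 without FOXA2, 10.4% held one under siNC and 12.4% under siFOXA2. Under the stricter score both fell, from 22.2% to 8.88% with FOXA2 and from 5.00% to 2.45% without, ratios of 0.400 and 0.490. Here too the change followed GC content. In the quintile of accessible distal regions with least GC, the share with JUN went from 25.4% to 9.39% with FOXA2 and from 5.41% to 2.66% without, and in the quintile with most GC from 47.9% to 66.5% and from 11.9% to 24.1%. Over all scores the ratio of siFOXA2 to siNC was lower with FOXA2 than without in all 5 quintiles. With the stricter score it was lower with FOXA2 only in quintile 4 (0.591 and 0.635), and was 0.235 against 0.175 in quintile 1 and 1.15 against 0.877 in quintile 5. Over all scores, 23.8% of accessible promoters without FOXA2 held JUN under siNC and 39.6% under siFOXA2, and 48.9% and 49.4% of those with it. These promoter shares are not given at the stricter score, where the siNC list held 1508 promoter regions and the siFOXA2 list 1277.

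Kept regions were on the whole weaker under siFOXA2. The median log2 ratio of the siFOXA2 to the siNC score was -0.28 over the 8832 kept regions, and 37.6% of them scored higher under siFOXA2. Promoters changed least, with a median of -0.12, followed by distal FOXA2-free regions at -0.35 and distal FOXA2-bound regions at -0.56. Their median siNC scores rose in the same order, from 80 to 107 and 151. Without the long arm of chromosome 8, described below, the medians were -0.15, -0.50 and -0.63. Outside that arm 28.7% of kept distal FOXA2-free and 29.5% of kept distal FOXA2-bound regions scored higher under siFOXA2. Scores are compared here as the authors gave them, and their scale depends on the depth of each library.

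The motifs set the classes apart. At promoters the CRE stood in 11.2% of kept, 5.29% of lost and 0.731% of new regions, against 0.944% of accessible promoters. At scores of 100 or more these shares were 27.2%, 14.8% and 8.39%. The CRE was thus more frequent in every promoter class at the stricter score, and most frequent in the kept one. Put the other way, siNC promoter regions with a CRE were kept in 83.3% (325 of 390) and those without in 68.8%. Those with a CRE also had a median siNC score of 265 against 59, and a median GC content of 67.7% against 63.7%. Promoters with high scores were kept more often, and the CRE was not compared at equal score or GC content.

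The AP-1 element was found mainly in distal regions. It stood in 18.4% of kept, 13.9% of lost and 3.70% of new distal regions, against 6.03% of accessible distal regions and close to 3% of windows 2 kb away. In the stricter comparison the shares were 32.5%, 24.3% and 7.29%. The forkhead element stood in 27.8% of kept, 37.2% of lost and 16.5% of new distal regions, and in 40.1% of accessible distal regions. It is rich in A and T, and over all regions the difference of -12.6 points between kept and lost shrank to -0.37 (-1.81 to 1.07) at equal GC. The corresponding AP-1 difference was 2.07 points (1.07 to 3.07) and 3.45 points (2.38 to 4.52) at equal GC.

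Among protein-coding genes, 4492 had a promoter JUN region under siNC and 28.0% of them lost every one of these regions, while 26.9% of the 15302 genes without one had a new one. Under the stricter score these shares were 32.6% of 1661 genes and 1.64% of 18133. Of the 11860 genes with a siNC region within 50 kb, 30.8% kept none, and at the stricter score it was 40.9% of 6841. The lists of genes below are described against these shares and not tested.

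Over all scores, genes of the AP-1 family itself kept the promoter JUN regions they had. Of 16 genes 8 had a promoter region under siNC and all 8 kept it, where 28.0% of genes lost theirs. At the stricter score 6 kept it and 2 lost it, where 32.6% of genes lost theirs. The 8 genes scored 116 or more under siNC, while promoter regions as a whole had a median of 65. Promoters with high scores were kept more often, so these counts cannot be set apart from the score. JUN scored 5419 under siNC and 4677 under siFOXA2, at chr1:59249571-59250163 in its untranslated region, the highest-scoring promoter region of the siNC list outside places found in 17 or more of the 22 lists. JUND, a JUN paralogue, scored 3299 and 3388, and its region held the CRE shown above. FOSL2, a FOS-related partner, scored 688 and 493, MAFF 492 and 232, MAFG 201 and 176, FOSB 217 and 90, and ATF7 116 and 89. The score was lower under siFOXA2 at 7 of the 8 genes, and FOSB and ATF7 fell below 100. FOS, BATF3 and ATF2 had weak new promoter regions of 22, 36 and 33.

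Immediate early and stress genes, which respond within minutes to growth factors and damage, included several of the strongest promoter JUN regions. Of 18 genes 5 kept a promoter region, 1 lost it and 5 had a new one. With 6 genes at risk, this count cannot be set apart from the 28.0% lost over all genes. DDIT3, a stress transcription factor, scored 1776 and 1317, KLF6, a zinc finger factor, 1602 and 1745, and DUSP1, a MAP kinase phosphatase, 1161 and 1052. KLF4 fell from 208 to 51. NR4A2, an orphan nuclear receptor, lost a region of 46, and IER2 gained one of 103, the only new promoter region of the list to reach 100.

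Of 21 genes listed as neuroendocrine transcription factors 15 had no promoter JUN region in either list, among them FOXA2, INSM1, NEUROD1 and ONECUT2. The 21 also include FOXA1 and SRRM4, a splicing factor. FOXA1, the luminal relative of FOXA2, scored 204 and 221 in a region with an AP-1 element, and SOX2 scored 33 and 41. PROX1 lost a region of 22 and had a separate siFOXA2 region of 26, so its promoter was not empty. FOXA2 had no siNC region within 50 kb and 4 new ones, which scored from 29 to 36. Over all protein-coding genes 11189 of 19794 had no promoter JUN region in either list. In the stricter comparison FOXA1 was the only member of the list with a promoter region, against 17836 of 19794 genes with none.

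Of 18 secretory and surface markers of neuroendocrine cells 6 kept a promoter JUN region, 2 lost it and 5 had a new one. The 2 losses among 8 genes lie near the 28.0% over all genes. CHGA and CHGB, the chromogranins of the secretory granule, scored 124 and 191 and 141 and 155, and both regions held a CRE. PCSK2, a prohormone convertase, scored 698 and 621, SNAP25, a vesicle fusion protein, 101 and 119, and SCG3 24 and 70. NCAM1, the adhesion molecule CD56, fell from 269 to 81. The other convertase, PCSK1, lost a region of 81 that held forkhead elements, and CALCA, the calcitonin gene, lost one of 72. SCG2, a further granin, had a new promoter region of 181 with a CRE, and UCHL1, a neuronal ubiquitin hydrolase, one of 136. At no promoter of this list was a region scoring 100 or more lost outright.

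Of 10 luminal and androgen receptor target genes 3 kept a promoter JUN region, 1 lost it and 1 had a new one. Of 12 basal and stem-like genes 2 kept it, 2 lost it and 3 had a new one. With so few genes at risk, these counts cannot be set apart from the 28.0% lost and 26.9% new over all genes. KRT8 and KRT18, luminal keratins that lie side by side, shared a region at chr12:53343486-53343953 that fell from 1073 to 353. It overlapped FOXA2 and held an AP-1 and a forkhead element. SLC45A3, an androgen-induced transporter, went from 90 to 39, and FKBP5, an androgen and glucocorticoid target, lost a region of 39. TP63, the basal p53 relative, lost a FOXA2-bound region of 111 and had 0 kept, 3 lost and 6 new regions within 50 kb. WWTR1, a Hippo pathway coactivator, went from 490 to 348, and ITGA6, a basal integrin, from 110 to 39. VIM lost a region of 66 and had another siFOXA2 region of 34. New promoter regions stood at TMPRSS2 (33), CD44 (21), YAP1 (24) and CCN1 (41), all of them weak.

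Of 10 Notch pathway genes NOTCH2 kept its promoter region (69 and 145), and HES1, a Notch target, lost one of 42. DLL1 and HEY1 had new ones of 63 and 53. NOTCH2 has near-identical copies on chromosome 1, so its values are uncertain. A further list held 8 genes taken here as possible FOXA2 or JUN targets. The paper shows qRT-PCR of such targets in the prostate cancer lines PC3 and LNCaP. Whether the listed genes are targets in NCI-H660 cells was not tested. NDC80, a kinetochore subunit, went from 185 to 159 in a region with a CRE, and CDK1, the mitotic kinase, from 24 to 45. CEP55 lost a region of 19 while another of 38 was called. PTHLH had a new promoter region of 33, with 1 lost and 4 new regions within 50 kb. INCENP, ERCC6L, CCBE1 and WNT7A had no promoter JUN region in either list. Of 6 Polycomb and chromatin genes none had a promoter JUN region under siNC, and KDM1A, which codes for LSD1, and HDAC2 had new ones of 20 and 63. None of the counts in these short lists can be set apart from the 28.0% lost and 26.9% new over all genes.

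**Figure D4:**
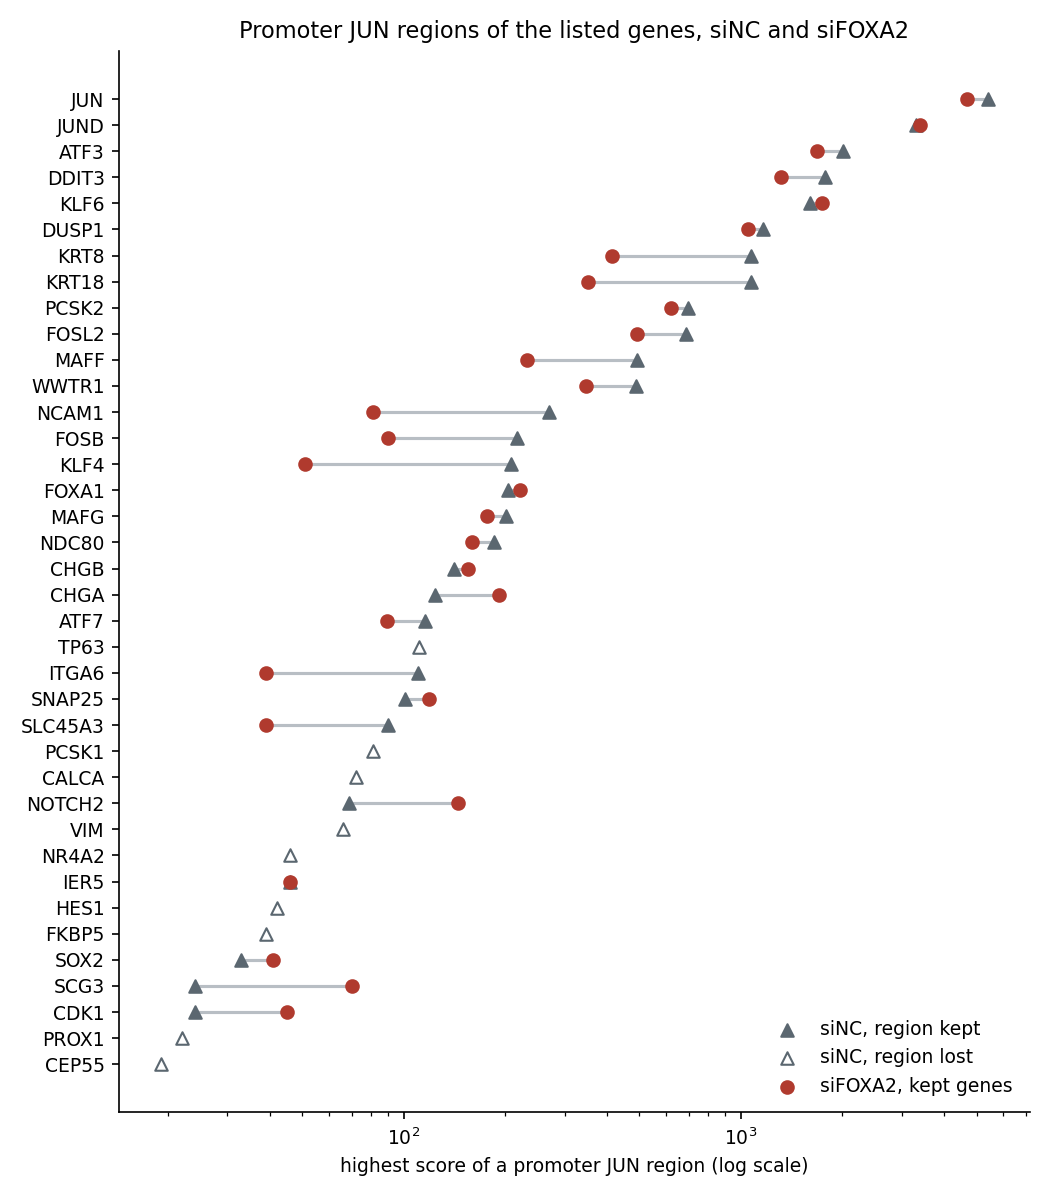
Highest promoter JUN score (x axis, log scale) of listed genes that had a promoter JUN region under siNC, with triangles for siNC (open where it was lost) and circles for the highest siFOXA2 promoter region of genes that kept one. JUN, JUND, ATF3, DDIT3, KLF6 and DUSP1 stay above 1000 in both lists, KRT8 and KRT18 drop from 1073, and the lost regions, of which TP63 is highest at 111, have a siNC point only.

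Individual regions were named by their rank within a class. The highest-scoring kept distal regions lay in ZNF704 (4944 and 3628), near POLR3GL (4110 and 2352) and in NSMCE2 (3589 and 1359). The highest-scoring lost promoter region was at POMT2, an O-mannosyltransferase gene, at chr14:77769921-77770439, in an intron 635 bp from a start. It scored 1878 under siNC, overlapped FOXA2, ATAC-seq and H3K4me2 regions, and had no siFOXA2 region. The next, at C21orf140 and CIAO3, scored 673 and 669. At the stricter score SIPA1L2 (1083) and CHRNA9 (852) followed POMT2, but siFOXA2 regions of 84 and 51 remained there.

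The highest-scoring lost distal regions, in PDE4DIP (2555) and near RDH10 (2057) and ELL2 (2003), all overlapped FOXA2. Over all distal regions FOXA2 overlapped 28.4% of lost and 27.9% of kept ones. At the stricter score a FOXA2-bound region near CHORDC1 (2783) ranked first, but a siFOXA2 region of 88 remained there. The ELL2 region was not accessible in the ATAC-seq list and was called in 14 of the 22 lists. The PDE4DIP region lies in a part of chromosome 1 with near-identical copies, where reads can be misplaced, so its loss is uncertain.

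The highest-scoring new promoter regions were at SHC2 (441), EEF1A2 (419) and ENO1 (410), the last a glycolytic enzyme gene. Those at EEF1A2 and ENO1 held an AP-1 element and were accessible. The highest-scoring new distal regions, near MAP3K7 (1550) and in IQCJ-SCHIP1 (968) and AP4S1 (904), were not accessible in the ATAC-seq list. They lie in repeated sequence, where reads can be placed at the wrong copy, so these calls are uncertain.

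The new regions as a whole were mostly outside known regulatory chromatin. Of the 50633, 21.1% were accessible in vehicle-treated cells, 18.6% carried H3K4me2 and 1.25% overlapped FOXA2, against 91.4%, 80.0% and 20.5% of kept regions. Only 10.0% were at promoters, and of these 80.2% were accessible, against 14.6% of the distal ones. In 55.5% of new regions no other of the 22 lists had a region. With the stricter score, 24.4% had none, 16.4% were at promoters and 40.1% of the distal ones were accessible. JUN in LNCaP cells labelled as expressing the FOXA2 mutant FOXA2K265R overlapped 47.7% of new promoter regions, 73.0% of kept and 28.1% of lost ones. The share was thus highest for kept promoters, against 59.6% of all siNC and 58.1% of all siFOXA2 promoter regions. Kept promoters also lay above lost ones in their overlap with the siNC JUN lists of PC3 (24.0% and 10.4%) and LNCaP (6.29% and 1.71%).

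A single chromosome arm held a large share of the new regions. The long arm of chromosome 8 (8q), which carries MYC, held 10598 siFOXA2 regions, or 17.8% of the list, against 2145 siNC regions (11.7%), 4.79% of accessible regions and 6.99% of FOXA2 regions. Its new regions numbered 9449, or 95.3 per Mb of known sequence, while the short arm of the same chromosome had 3.84 per Mb. The next densest arms were the small 21p at 79.9 and 1q at 33.1 per Mb. In the 19 bins of 5 Mb on 8q the number of new regions had a median of 501 and ranged from 219 to 595, and on the short arm the median was 15.5. The excess therefore ran over the whole arm. Genes nearest to new regions were accordingly led by genes of 8q, with CSMD3 (237 regions), KHDRBS3 (190), RALYL (188), FAM135B (175) and TRPS1 (151) at the head and MYC with 105. These were picked after their counts had been seen. CSMD3 was nearest to 39 kept and 51 lost regions and MYC to 20 and 10, and CSMD3 thus led all 3 classes.

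At a score of at least 100 the arm stood out further. It held 1111 siFOXA2 and 476 siNC regions, a log2 ratio of 1.22, while the other arms were negative except 21p (1.25), an arm with 19 and 8 regions, and Yp (0.38). Of the 1741 new regions at this score 882 were on 8q. Of these 26.1% were accessible and 2.27% held the AP-1 element, against 72.5% and 12.3% of those outside 8q. Kept regions on 8q scored higher under siFOXA2, with a median log2 ratio of 0.53, while kept regions elsewhere scored lower, with a median of -0.38. Leaving out 8q changed the kept share from 48.0% to 47.2% and the promoter minus distal difference from 28.6 to 29.1 points. The part that the copy number of this arm has in these values was not tested.

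**Figure D5:**
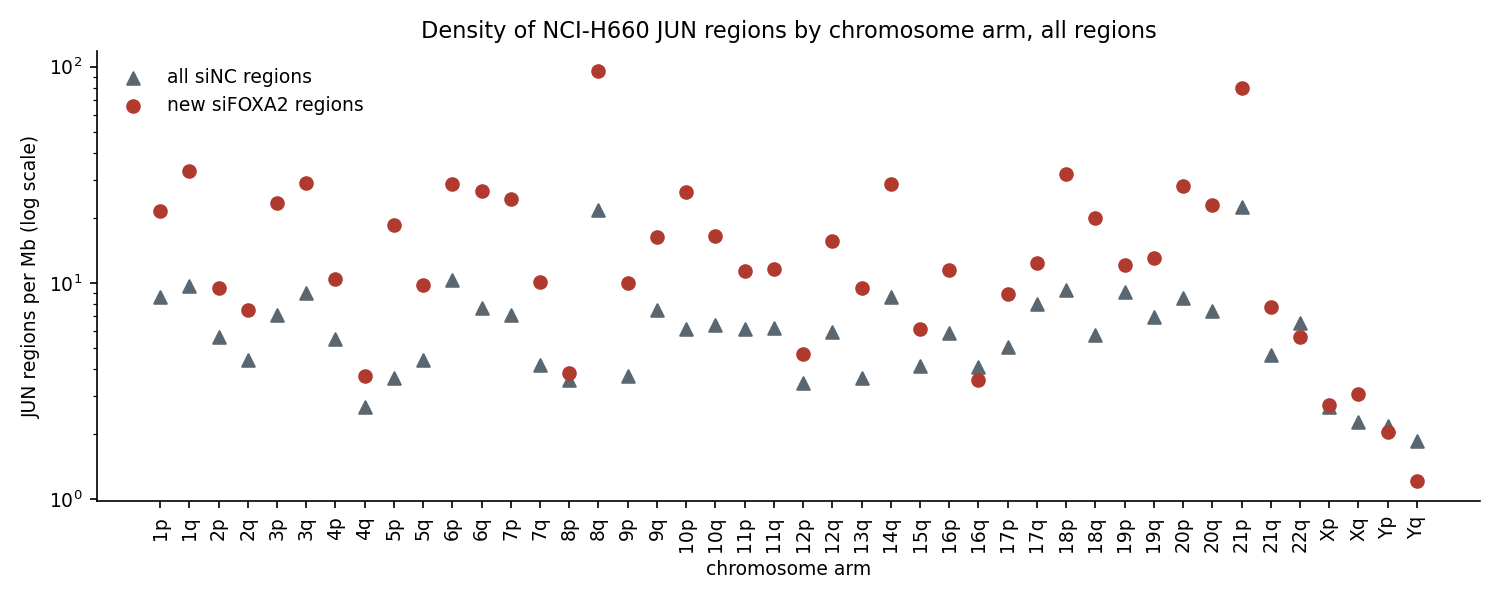
JUN regions per Mb of known sequence (y axis, log scale) for each chromosome arm, with triangles for all siNC regions and circles for new siFOXA2 regions. New regions on the long arm of chromosome 8 stand at 95.3 per Mb, the small 21p at 79.9 and 1q, the next, at 33.1, while the short arm of chromosome 8 lies at 3.84.

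Outside 8q the genes nearest to new regions at the stricter score were led by PPIAL4G (15 regions), TPTE (13), RP11-195B21.3 (12) and PDE4DIP (10). PPIAL4G, TPTE and PDE4DIP lie in sequence with near-identical copies, so these counts are uncertain. Genes nearest to lost regions at this score were led by CWH43 (16 lost and 12 kept), USP9Y (15 and 5), SHCBP1 (13 and 2) and HGSNAT (11 and 3). Those further down included ZNF33B (10 and 14), AUTS2 (9 and 1), a neurodevelopmental gene, SIPA1L2 (9 and 2) and TENM4 (9 and 2). NR5A2 (8 and 1), an orphan nuclear receptor, and NAALADL2 (8 and 1) were also among them. Whether the regions near these genes lie in repeated sequence was not tested, so their counts are uncertain as well. At this score 59.3% of all siNC regions were lost, and CWH43 lay near that share. Over all scores new regions outnumbered lost ones near AUTS2 (83 new and 18 lost) and NAALADL2 (39 and 19). SERTAD2 (5 kept and 0 lost) and DLG5 (5 and 1) stood at the other end. These genes too were picked after their counts were seen, and long genes with wide surroundings collect more regions than short ones.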

How the data were processed

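ChIP-seq of JUN was performed by the authors in NCI-H660 cells transfected with ON-TARGETplus siRNAs. Per the study's methods and the submitters' processing notes, reads were aligned to hg19 with BWA 0.7.17-r1188, handled with SAMtools 1.9 and called with MACS2 2.1.4. Pooling, the control library and the MACS2 settings are not given in the sources used here. The deposited score of each region, a whole number set by the authors, was read as 10 times −log10 q because its minimum was 13. Of the 22 lists 2 held no score and were used for overlap only. The members, gene lists and tests were chosen with earlier results of these data known.

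Overlap needed 1 bp. Shares carry Wilson intervals, and differences Newcombe intervals or, where standardised over deciles of score or GC, weighted normal ones. Promoters and genes came from GENCODE 44 mapped to GRCh37 (19794 protein-coding symbols). Motifs were searched within 100 bp of the centre. Named regions were the 3 highest-scoring of each class and place outside places found in 17 or more lists, and named genes came from the lists, with exceptions stated. Standardisation over GC and the exclusion of 8q were added after the data had been seen. The scripts (Python 3.11.15, pandas 2.3.3, numpy 2.4.6, pysam 0.24.0) were tested on simulated data. A listed marker gene and the central windows of the highest-scoring new distal regions are not reported here.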

Additional observations from a re-analysis of the deposited data

Results flagged for a closer look

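The number of JUN regions moved in opposite directions in the lines. Between siNC and siFOXA2 the log2 ratio was 1.69 in NCI-H660 (18401 and 59452 regions) and -2.55 in PC3 (23890 and 4081). The difference between the lines was not tested, since each side of each contrast is 1 list. Among regions scoring 100 or more the ratios were -0.66 and -3.16, which have the same sign. The kept share of siNC regions was 48.0% in NCI-H660 and 13.4% in PC3, and 40.7% and 10.6% at the stricter score.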

How the results depend on the processing

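Of 50 alternative values, 12 moved by less than the counting interval, 35 moved by more and 3 turned a difference whose interval left out 0 to the other sign. The distal FOXA2 difference, whose interval held 0, also became positive in 3 of the 35. Where a value changed, the cause was not tested. The log2 ratio of region numbers was 0.61 at a score of at least 50, -0.66 at 100 and -1.11 at 200, and 1.59 without 8q. The kept share was 43.1%, 40.7% and 40.6% at those scores, 35.1% with equal numbers of top regions, 34.8% with 50% overlap of both regions and 47.2% without 8q. The promoter minus distal difference was 31.3 points at a score of at least 100, 26.9 with promoters of 2 kb, 14.9 with 50% overlap, 18.7 with equal numbers and 6.41 over GC deciles. For distal FOXA2-bound minus FOXA2-free regions it was -6.81 at a score of at least 100, -4.00 over score deciles, 2.24 with equal numbers, 8.49 over GC deciles and 6.27 with both GC deciles and that score. At promoters it was -20.4 at a score of at least 100 and 2.78 over GC deciles, which reversed it. The promoter share of new regions was 16.4% at a score of at least 100, 11.4% with promoters of 2 kb and 11.7% without 8q. The accessible share of new minus kept regions was -49.3 points at a score of at least 100, -33.4 with 50% overlap and -72.0 without 8q, and the H3K4me2 share -41.8 and -62.4 at that score and without 8q. The AP-1 difference of kept minus lost was 4.07 at a score of at least 100, 3.52 in whole regions, 4.47 in distal regions and 3.45 over GC deciles. The forkhead difference was -15.2 at a score of at least 100, -17.0 within 250 bp, -9.43 in distal regions and -0.37 over GC deciles. No paired analysis was possible because each side held 1 list. The unknown depth limits every comparison of numbers and scores between the lists.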
